A study of Mus musculus with 10 samples.

Results

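Axon guidance genes of the ephrin, Slit-Robo and netrin families were followed in cells of the Emx1+ lineage of the mouse neocortex with and without Cdkn1c. Members were taken by gene symbol and comprised the Eph receptors (14 genes), the ephrins (8), the Slits (3), the Robo receptors (4), netrins 1, 4 and 5, the netrin-Gs (2), the Unc5 receptors (4), and Dcc and neogenin (Neo1). Together these were 40 of 53379 genes with a row in the count tables. Of the 40 members, 28 had a mean of at least 10 reads over all libraries, whatever the genotype, and were tested; the other 12 are described by their reads.

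RNA was sequenced from 3 cKO-Cdkn1c-MADM-7 embryos (cKO) and 7 control MADM-7 embryos at E16, with 1 embryo per library and 400 sorted cells per library. In Mosaic Analysis with Double Markers (MADM), Cre-driven exchange between split reporter cassettes on homologous chromosomes labels dividing cells and their descendants green, red or both. All embryos carried the MADM-7 GT and TG cassettes on chromosome 7 and 1 copy of Emx1-Cre, which acts in dorsal telencephalic progenitors, so that the sparse labelled cells can be of any type born from them. The cKO embryos in addition carried the Cdkn1c-flox allele on the chromosome from each parent, so that Cre removed Cdkn1c in the whole Emx1+ lineage, and controls had no floxed allele. GFP+, tdT+ and GFP+/tdT+ cells were sorted together. The labels give the strain background as CD1, the growth protocol gives a mixed C57BL/6J, CD1 background, and embryos of both sexes were used. The question was how these genes differed in level between cKO and control MADM-7.

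Eph receptors are receptor tyrosine kinases that bind ephrins on neighbouring cells. EphA receptors mainly bind the lipid-anchored ephrin-As and EphB receptors mainly the transmembrane ephrin-Bs, and contact usually repels the cell or axon. Slits are secreted proteins that repel axons through Robo receptors. Netrins are secreted cues that attract through Dcc and neogenin and repel through Unc5 receptors, while netrin-Gs are anchored to the membrane and bind other partners. In the developing cortex these families act in neuronal migration, in the sorting of cortical areas and layers, and in the routing of callosal and corticofugal axons.

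Between 1738220 and 3362487 reads per library fell on genes. The share of uniquely aligned reads that lay outside genes divided the libraries into a set at 5.47% to 8.64% (cKO replicate 3 and 4 controls) and a set at 12.8% to 16.7% (cKO replicates 1 and 2 and 3 controls). No pair of libraries of a genotype was alike within counting noise, with a chi-square per degree of freedom of at least 4.69. Cdkn1c, the deleted gene and an inhibitor of cyclin-dependent kinases, was counted 32, 10 and 18 times in the 3 cKO libraries, where controls gave 116 to 369 reads. Its log2 fold change was -3.66 (SE 0.38, adjusted p = 3.68e-06), and the labels therefore held. In CPM (read counts scaled to the library size with TMM factors) this was 7.39 ± 3.40 (SD, n = 3) against 95.1 ± 20.0 (SD, n = 7), with a two-sided exact permutation p of 0.0167, the smallest that the 120 splits of 3 against 7 libraries allow.

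In control cells the ephrins and the EphA receptors stood highest per length among the families. Summed RPKM (CPM per kilobase of merged exons) in controls was 133 ± 8.94 (SD, n = 7) over the ephrins and 87.9 ± 9.23 over the Eph receptors, of which the EphA receptors made up 68.7 ± 9.19. The Unc5 receptors summed to 17.8 ± 2.30, the Robos to 15.99 ± 3.66, and Dcc with neogenin to 13.2 ± 3.71. Netrin-Gs at 6.87 ± 2.31 and Slits at 3.07 ± 0.804 were lower, and the netrins at 0.459 ± 0.355 were close to the level of single reads. Receptors for Slits and netrins thus stood several-fold above their secreted ligands in these sorted cells.

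Efnb1, the X-linked ephrin-B1, had the highest single level per length in controls (26.8 ± 3.69 RPKM, SD, n = 7), followed by Epha4 (26.5 ± 6.07), Efna3 (25.2 ± 3.70), Efnb2 (23.9 ± 1.90), Epha5 (20.7 ± 3.23) and Efna2 (20.5 ± 7.38). Neighbours in this order differed by less than the larger of their SDs. Below them came Efna4 (15.4 RPKM), Epha3 (14.9), Efnb3 (13.2), Neo1 (12.2), Unc5d (12.0), Robo1 (8.58), Ephb1 (8.54), Robo2 (7.40), Epha7 (5.92) and Ntng2 (5.75). Slit1 led the Slits at 2.05 RPKM, and Dcc stood at 1.02 RPKM. The order depended on the length used: per kilobase of the longest transcript, Epha5 led at 47.3 RPKM, then Efnb2 at 34.2 and Epha4 at 33.7, with Efnb1 at 28.4.

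**Figure D1:**
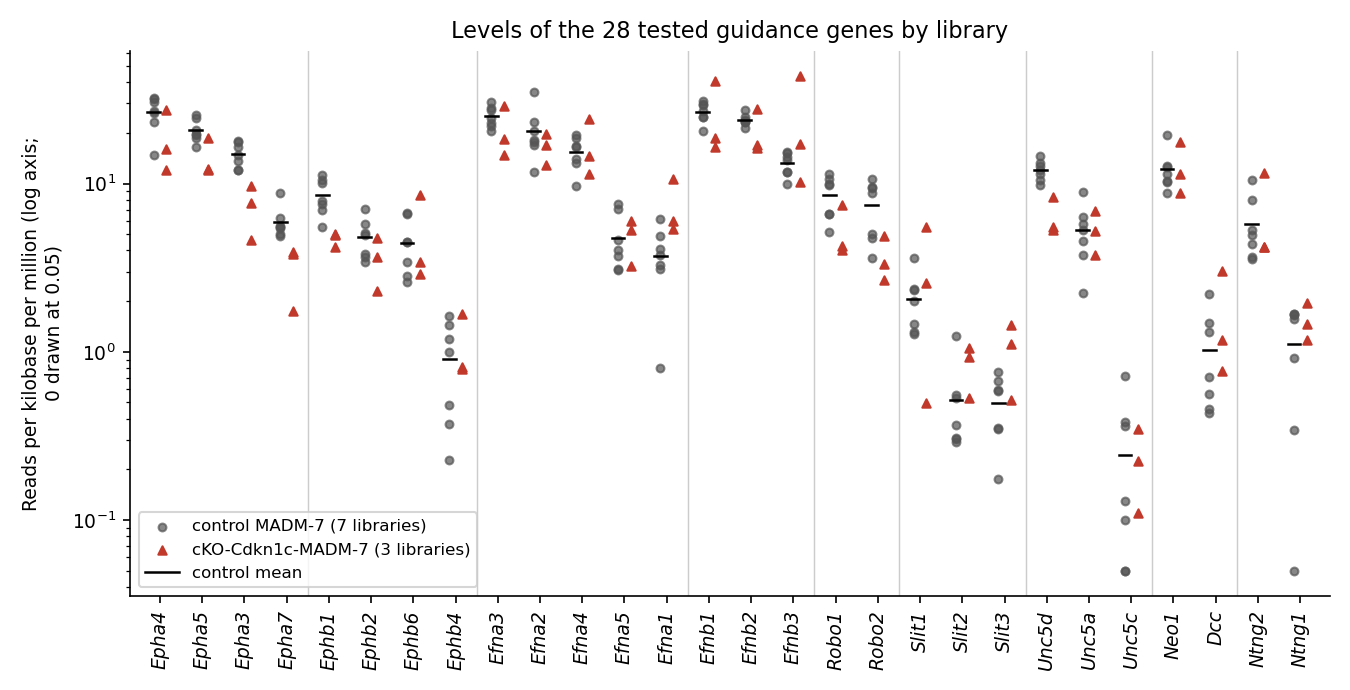
Level of each of the 28 tested members in RPKM on a log axis, by family, with 7 control libraries as circles, 3 cKO libraries as triangles and the control mean as a bar. Efnb1, Epha4, Efna3 and Efnb2 lie highest in controls, and the 3 cKO triangles lie below all controls for Epha3, Epha7, Ephb1 and Unc5d.

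The members called lower in cKO cells were receptors, and no ligand was called. Epha3 and Unc5d passed an adjusted p of 0.05 over the 11551 genes tested and fell to 48.8% and 53.2% of the control level. These are 2 of 28 members (7.14%) called lower, where 0.883% of all genes tested were called lower. No member was called higher, where 2.27% of all genes were. At an unadjusted p under 0.05, 8 members were lower (28.6%; 7.11% of all genes), namely Epha3, Unc5d, Ephb1, Epha7, Robo2, Epha5, Robo1 and Epha4, every one a receptor. At the same threshold 4 were higher (14.3%; 9.25% of all genes), namely Efnb3, Efna1, Slit3 and Slit2, every one a ligand. The higher side depended on 1 library: without cKO replicate 1, 0 members were higher and 8 lower, with 1851 genes in either direction. DESeq2 and limma-voom each gave 2 higher and 8 lower, with 1833 and 1836 genes in either direction.

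All 3 cKO libraries lay below all 7 controls for 4 members, Epha3, Unc5d, Ephb1 and Epha7 (14.3%; 2.68% of all genes), and above all controls for no tested member (3.32% of all genes). Over the 15 tested receptors the median log2 fold change was -0.52, over the 11 tested ligands it was 0.15, and over all genes it was 0.01. Of the 28 members 15 had a log2 fold change below 0 (53.6%; 48.7% of all genes), a share near that of all genes. These counts describe the lists, and the difference between receptors and ligands was not tested. For 11 members the 95% interval of the log2 fold change lay within 1 on either side of 0. In sorted bulk samples, fewer cells of a type and less RNA per cell cannot be told apart.

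**Figure D2:**
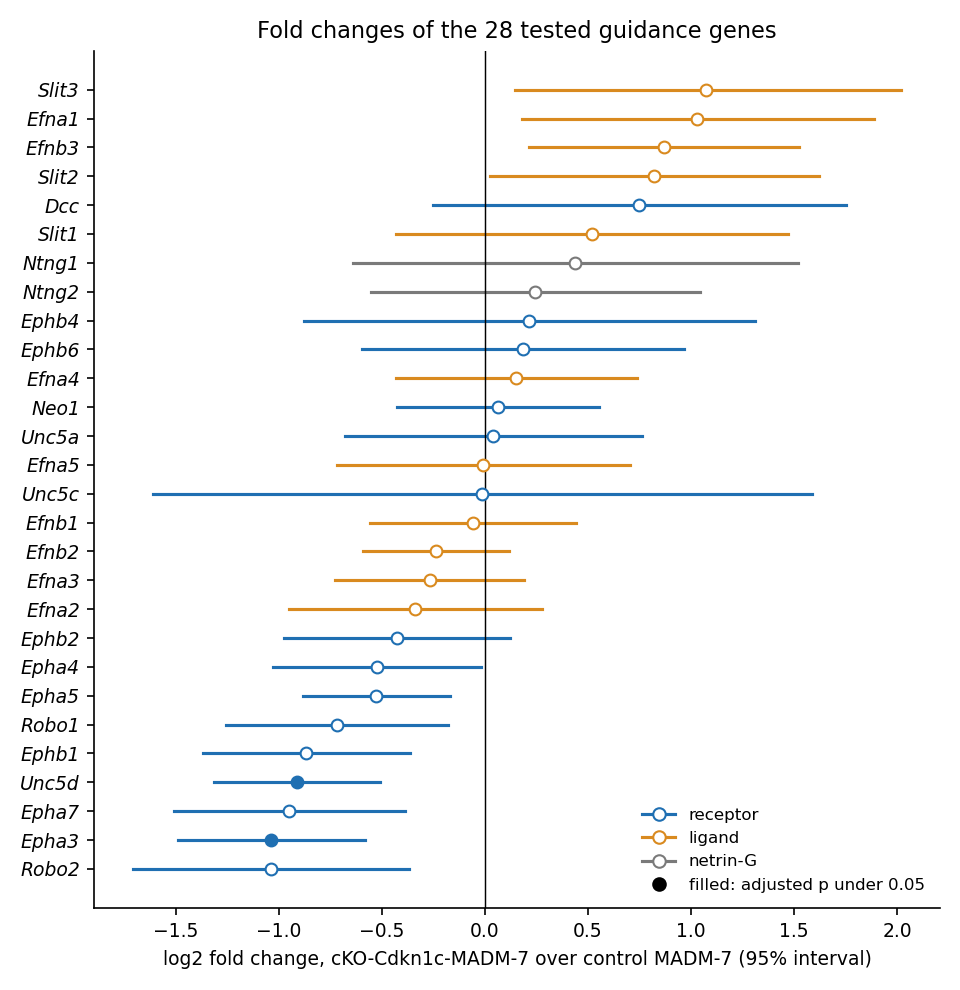
log2 fold change of cKO over control with its 95% interval for the 28 tested members, in order of size and coloured by role, with filled points for an adjusted p under 0.05. Epha3 at -1.04 and Unc5d at -0.91 are filled, the 8 intervals wholly below 0 belong to receptors, and the 4 wholly above 0 belong to ligands.

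Of the 4 tested EphA receptors, 1 was called lower (Epha3), where 0.883% of all genes were. The summed level of all 9 EphA receptors, which was not tested, was 37.6 to 53.2 RPKM in the cKO libraries and 58.2 to 81.8 RPKM in the controls, with no overlap. All 4 tested EphA receptors had a log2 fold change below 0, with a median of -0.74.

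Epha3, a receptor for ephrin-As (ENSMUSG00000052504.6, GRCm38 chr16:63543534-63864175, minus strand), had 40.1, 84.4 and 66.5 CPM in cKO replicates 1 to 3. In the controls it ranged from 104 over a median of 129 to 155 CPM. Each cKO library was below each control. The log2 fold change was -1.04 (SE 0.22, 95% interval -1.49 to -0.58, adjusted p = 0.0127, edgeR). cKO replicate 1 was the lowest library. Without it the log2 fold change was -0.77 and the adjusted p 0.0531, so the call was lost, while it held in the other 20 of 21 settings tried. Within the libraries with few reads outside genes the difference was -0.83 on the log2 scale, and within those with many -1.27.

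Epha7, which also binds ephrin-As and is known for graded expression across the cortical plate, had 17.4, 38.7 and 37.4 CPM in cKO. Controls ran from 48.5 over a median of 54.6 to 86.4 CPM, again with no overlap. Epha7 had a log2 fold change of -0.95 (SE 0.27, interval -1.51 to -0.39) with an adjusted p of 0.0611, just outside the threshold. Within the libraries with few reads outside genes the difference was -0.50 on the log2 scale, and within those with many it was -1.27.

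Epha5, abundant in forebrain neurons, had 313, 205 and 202 CPM in cKO against 275 to 426 CPM in controls with a median of 328. cKO replicate 1 lay inside the control range and the other two below it. Its log2 fold change was -0.53 (SE 0.17, interval -0.88 to -0.17, adjusted p = 0.117). Without cKO replicate 1, Epha5 was the 1 member called, at -0.77 with an adjusted p of 0.0230 (edgeR). Epha4, which binds ephrins of both classes, had 97.3, 219 and 130 CPM in cKO and 119 to 258 CPM in controls with a median of 218. Its groups overlapped, and the log2 fold change of -0.52 (SE 0.24, interval -1.03 to -0.02) had an adjusted p of 0.294. Without cKO replicate 1 it was -0.28 (adjusted p = 0.623), and without cKO replicate 2 it was -0.91 (adjusted p = 0.0492, edgeR). cKO replicate 1 was thus the lowest library for Epha3, Epha7 and Epha4 but the highest cKO library for Epha5.

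Among EphB receptors, Ephb1 stood out. Ephb1, known for steering axons away from ephrin-B at the optic chiasm, had 34.8, 35.2 and 29.5 CPM in cKO, the tightest cKO values of the receptors named here. Controls ran from 38.7 over a median of 55.0 to 78.2 CPM. All cKO libraries were below all controls, at a log2 fold change of -0.87 (SE 0.24, interval -1.37 to -0.36, adjusted p = 0.0554). Ephb1 was called in 6 of 21 other settings, and DESeq2 on the same genes called it together with Epha3, Epha7, Unc5d and Robo2 (5 of 28 lower; 1.82% of all genes). Its locus overlaps 9 other genes, and reads shared with them are not counted.

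Ephb2, the other main EphB receptor of these cells, had 45.8, 59.8 and 29.0 CPM in cKO and 43.2 to 89.1 CPM in controls, which overlapped. Its log2 fold change was -0.43 (interval -0.97 to 0.12, adjusted p = 0.448). Ephb6, which lacks kinase activity, and Ephb4, best known from blood vessels, gave 0.18 (interval -0.60 to 0.97) and 0.21 (interval -0.88 to 1.31), too wide to tell a change of either sign.

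The sequences upstream of Epha3, Ephb1 and Epha7 are shown because these receptors had every cKO library below every control. RefSeq promoter entries (GRCm38.p6) were at hand for 35 members, and of these receptors for Epha3, Ephb1 and Epha7, not for Unc5d. Each run gives the 250 bases before the annotated start, 5′ to 3′ on the strand of the gene. Capitals mark any match, on either strand, to the E-boxes CAGATG and CAGCTG, the GC box GGGCGG or the TATA motif TATAAA. Epha3 lies at chr16:63864176-63864425 (minus strand), Ephb1 at chr9:102354694-102354943 (minus strand) and Epha7 at chr4:28812881-28813130 (plus strand).
Epha3: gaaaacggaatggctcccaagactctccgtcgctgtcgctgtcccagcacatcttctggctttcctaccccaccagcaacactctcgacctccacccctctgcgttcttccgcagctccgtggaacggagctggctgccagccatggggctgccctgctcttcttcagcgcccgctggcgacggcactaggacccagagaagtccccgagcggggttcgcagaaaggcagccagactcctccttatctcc
Ephb1: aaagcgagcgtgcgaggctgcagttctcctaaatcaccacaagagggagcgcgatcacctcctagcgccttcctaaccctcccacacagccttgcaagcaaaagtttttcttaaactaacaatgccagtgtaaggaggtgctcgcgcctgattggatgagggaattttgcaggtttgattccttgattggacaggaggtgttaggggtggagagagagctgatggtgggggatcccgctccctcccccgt
Epha7: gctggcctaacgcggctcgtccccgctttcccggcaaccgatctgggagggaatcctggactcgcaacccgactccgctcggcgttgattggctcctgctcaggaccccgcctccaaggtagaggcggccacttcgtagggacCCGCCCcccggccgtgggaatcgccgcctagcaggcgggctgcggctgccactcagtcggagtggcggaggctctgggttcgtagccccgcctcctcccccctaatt
A single GC box on the opposite strand in Epha7 was the only match, and the promoters of Epha3 and Ephb1 held none of these letters. Of all 32851 promoters of this length in the table, 14.4% held CAGATG, 13.0% CAGCTG, 32.7% GGGCGG and 12.4% TATAAA. The GC content was 62.8% for Epha3, 54.0% for Ephb1 and 69.2% for Epha7, and the median of all promoters was 52.4%. Over the 40 promoter entries of these 35 members, 10% held CAGATG, 15% CAGCTG, 67.5% GGGCGG and 5.00% TATAAA.

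Ephrins showed no common direction. Their summed level was 104 to 181 RPKM in the cKO libraries and 122 to 147 RPKM in the controls, so cKO libraries lay on both sides of the control range. None of the 8 passed the adjusted threshold and the median log2 fold change was -0.03.

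Efnb3, a transmembrane ephrin of neurons, had the smallest p of the ligands, and a single library carried it. It had 139, 54.7 and 32.4 CPM in cKO and 31.8 to 48.7 CPM in controls with a median of 44.1. cKO replicate 1 stood far above all other libraries, while cKO replicate 3 lay near the bottom of the controls. The log2 fold change was 0.87 (SE 0.31, interval 0.21 to 1.52, adjusted p = 0.151). Without cKO replicate 1 it was 0.05, and without cKO replicate 3 it was 1.21 and passed the threshold. Within the libraries with few reads outside genes the difference was -0.42, and within those with many 1.16.

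Efna1, an ephrin-A known as a target of inflammatory signalling in vessels, had 19.4, 9.77 and 10.9 CPM in cKO. Controls ran from 1.46 over a median of 6.84 to 11.3 CPM. cKO replicate 1 was above all controls, and replicates 2 and 3 sat inside the upper part of their range. This gave a log2 fold change of 1.03 (SE 0.40, interval 0.18 to 1.89, adjusted p = 0.207), which was 0.63 (adjusted p = 0.567, edgeR) without cKO replicate 1.

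The 4 ephrins with the highest level per length were not called. Efnb1 had 141, 57.0 and 63.9 CPM in cKO and 70.9 to 107 CPM in controls, with a log2 fold change of -0.06 (interval -0.56 to 0.44). Its cKO libraries thus lay on both sides of the controls, replicate 1 above and the others below, and without cKO replicate 1 the log2 fold change was -0.61 (adjusted p = 0.126, edgeR). Efnb2, a ligand shared by neurons and arteries, gave -0.24 (interval -0.59 to 0.11), Efna3 -0.27 (interval -0.73 to 0.19) and Efna2 -0.34 (interval -0.95 to 0.28). Efna4 at 0.15 (interval -0.43 to 0.74) and Efna5, known for topographic mapping, at -0.01 (interval -0.72 to 0.70) overlapped the controls as well. Efna1, Efna3 and Efna4 lie in 1 cluster on chromosome 3 with gaps of 32.8 and 10.4 kb, and their log2 fold changes of 1.03, -0.27 and 0.15 had no common sign. Reads of Efna3 and Efna4 are undercounted, since summing the strand-specific columns raised them 1.29-fold and 1.19-fold.

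**Figure D3:**
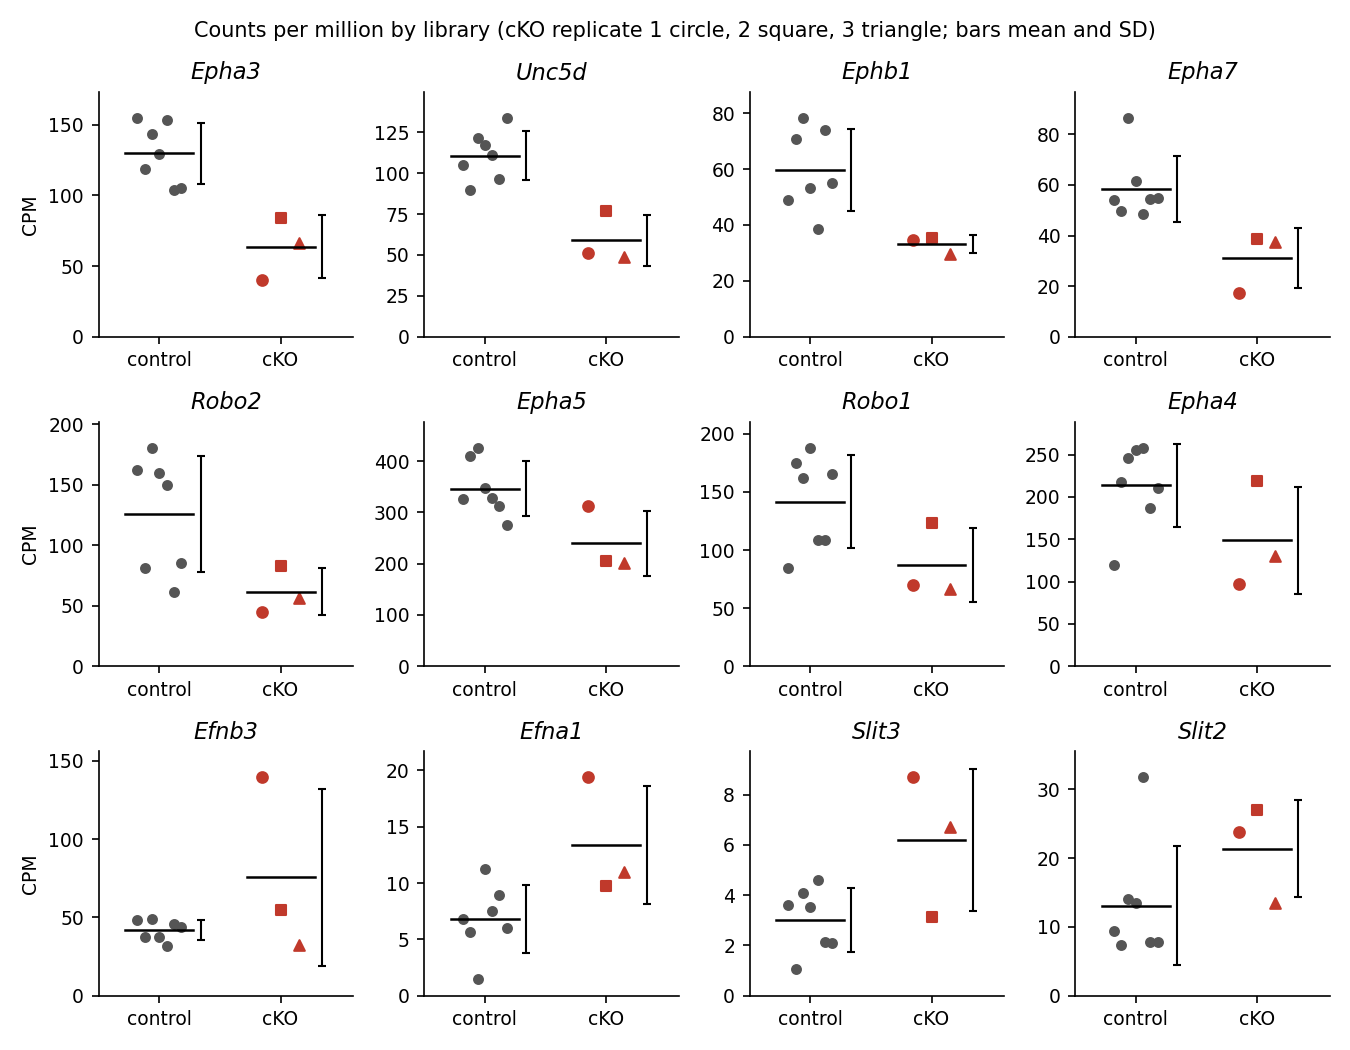
CPM of the 12 members with an unadjusted p under 0.05 in each library, 8 receptors in the upper panels and 4 ligands in the lowest row, with the mean and SD beside each group and axes that start at 0. The cKO points of Epha3, Unc5d, Ephb1 and Epha7 lie below all control points, whereas in Efnb3 cKO replicate 1 (circle) stands at 139 CPM and the other cKO points near the controls.

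Both tested Robo receptors had log2 fold changes below 0 that did not pass the adjusted threshold. Their family sum was 6.91 to 12.4 RPKM in the cKO libraries and 10.2 to 20.8 RPKM in the controls, with an overlap through cKO replicate 2. Robo1, a main Slit receptor of cortical neurons, had 70.2, 123.4 and 66.5 CPM in cKO against 84.6 to 188 CPM in controls with a median of 162. Its log2 fold change was -0.72 (SE 0.26, interval -1.26 to -0.18, adjusted p = 0.157).

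Robo2, its close relative, had 45.2, 83.2 and 56.4 CPM in cKO. Controls ran from 61.3 over a median of 150 to 181 CPM and fell into a lower group of 3 and an upper group of 4 libraries. Of the cKO libraries, replicates 1 and 3 were below every control and replicate 2 within the lower group. The log2 fold change was -1.04 (SE 0.32, interval -1.71 to -0.37, adjusted p = 0.0955), as large as that of Epha3 with a wider error. The difference was -0.69 among the libraries with few reads outside genes and -1.40 among those with many. Robo2 passed the threshold in 5 of 21 other settings, DESeq2 among them, and Robo1 in 2, including that without cKO replicate 2 (-1.06, adjusted p = 0.0438, edgeR). Robo1 and Robo2 lie 846 kb apart on chromosome 16, which also holds Epha3.

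All 3 Slits had a log2 fold change above 0 and low levels. Slit3 had 8.70, 3.13 and 6.73 CPM in cKO and 1.06 to 4.62 CPM in controls with a median of 3.54, a log2 fold change of 1.07 (SE 0.45, interval 0.14 to 2.02, adjusted p = 0.234). Slit2 had 23.7, 27.0 and 13.5 CPM in cKO and 7.43 to 31.8 CPM in controls with a median of 9.36. The highest Slit2 value of all was thus a control, and the log2 fold change was 0.82 (SE 0.38, interval 0.02 to 1.62, adjusted p = 0.294).

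Slit1, the most abundant Slit per length, had 32.4, 15.2 and 2.95 CPM in cKO and 7.56 to 21.4 CPM in controls. cKO replicate 1 was the highest and replicate 3 the lowest of the 10 libraries. The log2 fold change of 0.52 (interval -0.43 to 1.47, adjusted p = 0.638) was -0.41 without cKO replicate 1. No Slit passed the adjusted threshold with edgeR under the settings of this comparison.

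Unc5d was the netrin receptor that fell. Unc5d (ENSMUSG00000063626.6, GRCm38 chr8:28646717-29219636, minus strand) is known as a marker of multipolar neurons bound for the upper layers and as a receptor for FLRT proteins as well as netrin. It had 51.2, 77.0 and 48.8 CPM in cKO. Controls ran from 89.9 over a median of 111 to 134 CPM, above every cKO library. The log2 fold change was -0.91 (SE 0.19, interval -1.31 to -0.51, adjusted p = 0.0127, edgeR). Within the 2 sets of libraries divided by reads outside genes it was -1.09 and -0.89. The adjusted p was 0.0508 without cKO replicate 1 and 0.0687 without cKO replicate 3, so that either library decides the call, and the direction held in all 21 settings.

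The other tested Unc5 receptors were not called, and their difference from Unc5d was not tested. Unc5a had 28.4, 21.9 and 15.6 CPM in cKO and 9.32 to 37.1 CPM in controls, with a log2 fold change of 0.04 (interval -0.68 to 0.76). Unc5c, known for netrin repulsion, was low, with 2.10 to 6.69 CPM in cKO and 0 to 13.7 CPM in controls, and its interval of -1.61 to 1.58 left its change undetermined. The Unc5 family sum was 11.2 to 14.4 RPKM in cKO and 14.97 to 21.002 RPKM in controls.

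The receptors for attraction by netrin were not called. Neo1, which also binds repulsive guidance molecules, had 98.7, 153 and 76.2 CPM in cKO and 76.3 to 169 CPM in controls with a median of 99.1. Its log2 fold change of 0.06 had an interval of -0.43 to 0.55. Its sign turned in 4 of 21 settings, among them without cKO replicate 2 (-0.25) and without control replicate 6 (-0.01). Dcc, the classical netrin-1 receptor, had 39.8, 10.2 and 15.6 CPM in cKO and 5.71 to 28.9 CPM in controls with a median of 9.36. cKO replicate 1 again gave the highest value, and the log2 fold change of 0.75 (interval -0.25 to 1.75, adjusted p = 0.474) did not pass.

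Netrins themselves were at the edge of detection. Ntn1 had 9, 8 and 1 reads in cKO and 0 to 6 reads per control library. Ntn4, a laminin-binding netrin, had 10 reads over the cKO libraries and 27 over the controls, and Ntn5 had 3 reads, all in cKO replicate 3. The netrin-Gs were higher in level. Ntng2, the most abundant at 5.75 RPKM in controls, had 45.8, 16.8 and 16.8 CPM in cKO and 14.1 to 42.1 CPM in controls (log2 fold change 0.24, interval -0.55 to 1.04). Without cKO replicate 1 its log2 fold change turned to -0.45. Ntng1 had 9.70, 12.1 and 15.99 CPM in cKO and 0 to 13.9 CPM in controls (0.44, interval -0.64 to 1.52). No fold change is given for the netrins.

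The other members under the filter were Epha1, Epha2, Epha6, Epha8, Epha10, Ephb3, Robo3, Robo4 and Unc5b. Robo4, best known from endothelium, had no read in any library, and 3 reads of the 27428324 on genes correspond to an upper limit of 0.109 CPM for counting error alone. Robo3, needed for midline crossing in the hindbrain and spinal cord, had 1 read, Epha1 2 and Epha2 3 in all libraries together. Epha10 had 12 reads, Epha6 29, Epha8 33 and Ephb3 99, of which 28 were in cKO replicate 2.

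Unc5b, a vascular and neuronal netrin receptor, is singled out after its values were seen. It had 14, 10 and 30 reads in cKO and 0 to 13 reads in controls, which is 4.68, 3.91 and 12.6 CPM against at most 3.79 CPM. All cKO libraries were thus above all controls, at a mean of 8.7 reads that left it under the filter. With no filter on low counts it was called higher, in a fit that called 961 genes where the filtered one called 364. Endothelial markers summed to 1.34, 21.5 and 3.79 CPM in the same cKO libraries, and microglial markers to 8.70, 2.73 and 38.3 CPM. The part of these cells in its reads was not tested.

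Library by library the members did not move as 1 block. The split by reads outside genes was computed for the 12 members at an unadjusted p under 0.05 and for Efnb1, Slit1, Ntng2 and Neo1. Among these, the direction differed between the sets (few, then many) for Slit1 (-1.74 and 0.93), Ntng2 (-0.57 and 0.69), Neo1 (-0.29 and 0.05) and Efnb3. Slit3 was at 1.40 and 0.33. The other tested members were not split in this way. cKO replicate 1 was the highest of the 10 libraries for 9 of the 28 tested members, Dcc, Ephb6, Efna1, Efna4, Efnb1, Efnb3, Slit1, Slit3 and Ntng2, and the lowest for 5. cKO replicate 3 was the lowest for 7 members and the highest for 1. The median log2 ratio of the members to the control mean was -0.02 in cKO replicate 1, -0.07 in replicate 2 and -0.49 in replicate 3, and between -0.20 and 0.19 in the controls. Efnb3, Efna1, Slit1 and Slit3 were thus highest in cKO replicate 1, whereas Slit2, Efnb2 and Efna5 were highest among the cKO libraries in replicate 2. A further 9 members, Epha3, Epha5, Epha7, Ephb1, Ephb2, Robo1, Robo2, Unc5d and Efna2, were below the control mean in all 3 cKO libraries. The share of all genes with this pattern was not counted, so the 9 cannot be set against it.

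**Figure D4:**
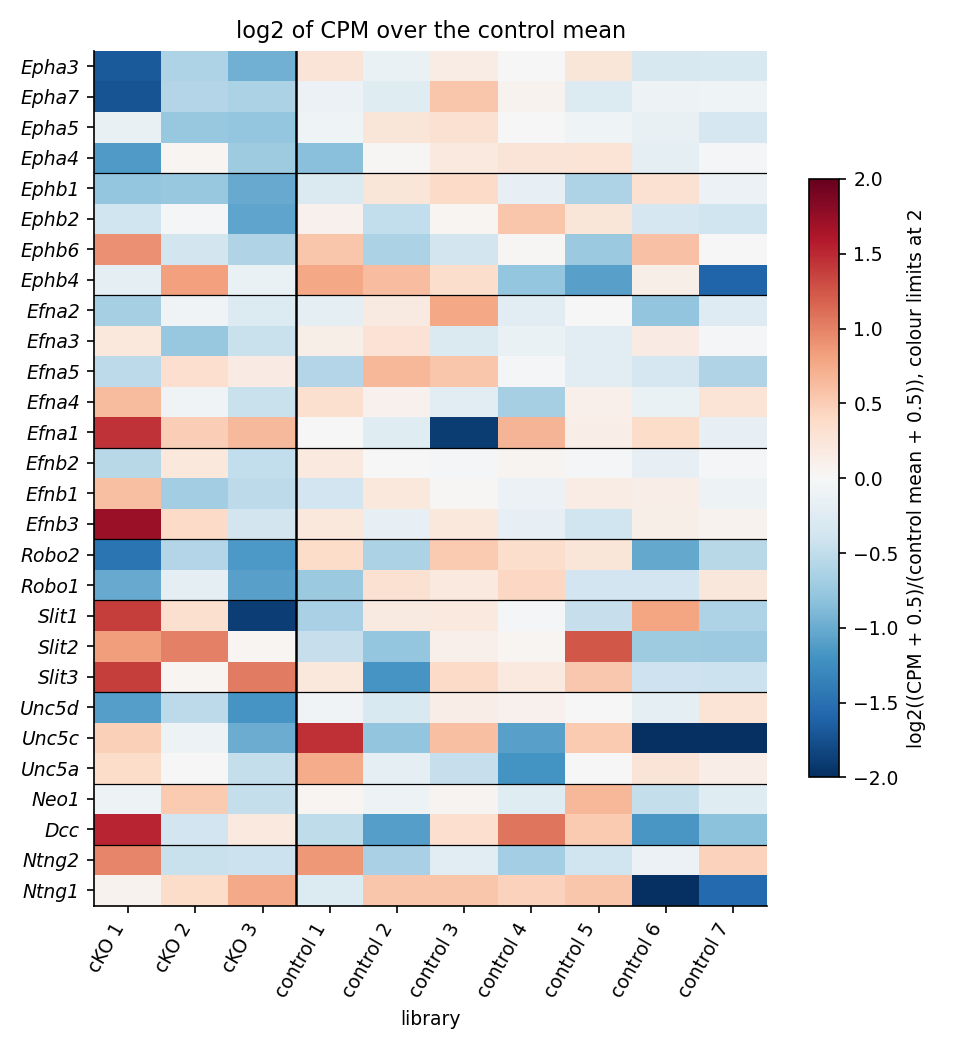
log2 of CPM over the control mean (0.5 added to each, colour limits at 2) for the 28 tested members in rows by family and the 10 libraries in columns. The rows of Epha3, Epha7, Ephb1, Robo1, Robo2 and Unc5d are blue in all 3 cKO columns, while Efnb3, Slit1 and Dcc are deep red in cKO replicate 1 and paler or blue in the others.

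Marker genes of the cell types moved with genotype as well. The sorted cells carried projection neuron markers at 7488 to 9869 CPM in sum in controls and radial glial progenitor (RGP) markers at 1478 to 2498 CPM, so that neurons and progenitors of this lineage were both present. Projection neuron markers summed to 5130 to 6701 CPM in cKO, below all controls, and 3 of 10 were called lower, among them Neurod6 (log2 fold change -0.98) and Neurod2 (-0.75), transcription factors of pyramidal neurons. In the same list Neurod1 (0.32), Bcl11b (0.26) and Dcx (0.16) were above 0 and not called, and the others were below 0. Tubb3, the largest part of the sum (mean 2967 CPM in cKO, 4495 CPM in controls), was not called (adjusted p = 0.0930, edgeR). None of the 8 RGP markers (1299 to 2479 CPM in cKO) and none of the 6 intermediate progenitor markers (680 to 817 against 478 to 1123 CPM) was called by edgeR.

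Cajal-Retzius markers were higher, with all 6 tested of 7 called, and their sum was 624 to 848 CPM in cKO and 25.9 to 222 CPM in controls. Reln, the secreted product of these cells, had a log2 fold change of 2.71. Interneuron markers summed to 41.8 to 119 against 15.4 to 54.8 CPM, with 1 of 7 called higher (Dlx2, 1.63). Endothelial markers summed to at most 21.5 CPM in cKO and 5.77 CPM in controls, and microglial markers to at most 38.3 and 5.71 CPM. Mural and meningeal markers summed to 26.8 to 45.3 against 11.3 to 31.5 CPM and oligodendrocyte precursor markers to 7.81 to 28.1 against 0 to 83.5 CPM. Of these lists only 1 of 7 and 1 of 5 genes had enough reads to be tested, and neither was called. Red blood cell markers ranged from 20.2 to 2282 CPM in cKO, highest in replicate 1, and from 0.357 to 1802 CPM in controls, and of these only the embryonic globin Hbb-y had no read in any library. The pericyte marker Kcnj8 had 4 reads in control replicate 2 and the oligodendrocyte lineage marker Sox10 had 1 read in control replicate 1, and neither had a read in any other library of either genotype. The part of these marker shifts in the lower levels of Epha3, Unc5d and the other receptors was not tested.

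A list of 53 cofactors and effectors of these families held 52 tested genes, of which 2 were called lower (0.883% of all genes) and none higher. Usp33, a deubiquitinase that binds Robo1, had 6.69, 15.6 and 21.5 CPM in cKO and 25.98 to 52.9 CPM in controls, a log2 fold change of -1.51 (SE 0.34, adjusted p = 0.0147, edgeR). Without cKO replicate 1 it was -1.12 (adjusted p = 0.0670), and with the strand-specific columns summed it was -0.98, still past the threshold. Trim67, a Dcc-binding ubiquitin ligase, had 111, 88.3 and 63.1 CPM in cKO and 125 to 235 CPM in controls, a log2 fold change of -0.90 (SE 0.23, adjusted p = 0.0479, edgeR). That call was lost when any 1 of 7 libraries (cKO replicates 2 and 3 and controls 1 to 5) was left out, with log2 fold changes of -0.95 to -0.71 and adjusted p values of 0.0556 to 0.180.

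By family, 17 of 17 Slit-Robo partners were tested with a median log2 fold change of -0.01, 17 of 17 netrin partners with -0.07 and 18 of 19 Eph partners with -0.10. The smallest p values on the higher side belonged to Pdlim1 (1.74, adjusted p = 0.0641), Nck1 (0.81, 0.182) and Ngef (1.32, 0.200), with edgeR. On the lower side, after the 2 called genes, came Ptk2 (-0.70, 0.0812), Nell2 (-0.58, 0.107) and Flrt3, and DESeq2 also called Ptk2 lower and Pdlim1 higher. The FLRT ligands of Unc5d were Flrt2 at -0.22 (interval -0.72 to 0.28) (named after its values were seen) and Flrt3 at -0.66 (interval -1.14 to -0.19, adjusted p = 0.140). The netrin-G ligands Lrrc4c and Lrrc4 gave -0.26 (interval -1.25 to 0.73) and -0.08 (interval -0.66 to 0.50).

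Members differed widely in genomic span. The 8 members lower at an unadjusted p under 0.05 had a median genomic span of 398 kb, the 4 higher ones 167 kb, the 28 tested members 158 kb, and all genes tested 24.7 kb. Epha4 (148 kb) and Epha7 (154 kb) were the shortest of the 8, and Dcc, at 1097 kb the longest tested member, had a log2 fold change above 0. The 417 tested genes over 300 kb had a median log2 fold change of 0.10. The 11 members over 300 kb had a median of -0.53, with Slit2, Slit3, Dcc and Ntng1 among them above 0. The part of gene length in these differences was not tested.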

How the data were processed

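Cells were sorted at E16 and libraries were prepared by Smart-Seq2, which amplifies full-length cDNA from polyadenylated RNA without molecular identifiers. The authors merged technical replicates, aligned reads to GRCm38 with STAR 2.5.0c, kept reads with a single alignment, counted them on GENCODE M16 genes and deposited raw counts, with no normalization. The column that ignores strand was used, since 50.3% to 50.5% of strand-assigned reads were on 1 strand. Reads over more than 1 gene (4.45% to 5.40% of uniquely aligned reads) and reads outside genes were left out of library sizes. Symbols and positions came from GENCODE M21 (GRCm38), which matched all but 105 of 53379 identifiers.

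Genotypes were compared with edgeR 4.0.16 (TMM, quasi-likelihood test, genotype alone in the design) on the 11551 genes that averaged 10 reads or more, and p values were adjusted by Benjamini-Hochberg over all of them. The fit was tested on simulated data with 200 changed genes. Standard errors and 95% intervals were computed from the fitted means and dispersions, and belong to the edgeR coefficient before shrinkage. The fold changes printed are those of the edgeR test, which shrinks them slightly. The authors' methods use DESeq2, which was run as an alternative (1.42.0), next to limma-voom (limma 3.58.1), other normalizations, filters and dispersions, summed strand columns, thinning, a covariate for reads outside genes, a replicate block and each library left out. One read is worth a median of 0.351 CPM, and amplification noise is not separated from the spread between embryos.

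All members are accounted for. Values by library are given for the members with an unadjusted p under 0.05, for the member with the highest level per length in each family, and for others where named. Partner genes are named where called, otherwise by the 3 smallest p values in a direction. The members and lists were chosen with earlier results of these data known. In the heat map 0.5 was added to CPM before taking logs, which understates the differences of low genes. Some marker genes that were tested are not reported here by name, and the counts and sums include them.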

Additional observations from a re-analysis of the deposited data

Results flagged for a closer look

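In the 7 controls, a library far from the others was found by Dixon's test at its 95% level for 3 members among 34 genes looked at, where chance flags about 1 in 20. Neo1 had 169 CPM in control replicate 5, and the nearest other control had 111 CPM. Slit2 had 31.8 CPM in the same library, from 55 reads, against 14.01 CPM in the nearest control. Epha7 had 86.4 CPM in control replicate 3, and the nearest control had 61.4 CPM. Control replicate 5 was also the shallowest library, with 1738220 reads on genes.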

How the results depend on the processing

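Over 21 settings Epha3 was called in 20 and Unc5d in 18, and both were below 0 in all of them. The number of members called was 2 of 28 in the report, in a fit that called 364 genes. It was 5 of 28 with DESeq2 (all lower, 510 genes called) and 9 of 39 with no filter on low counts (7 lower, 2 higher, 961 genes called). As libraries were left out it ran from 1 to 5, in fits that called 271 to 419 genes. Without cKO replicate 1 the call was Epha5 instead of Epha3 and Unc5d, and without cKO replicate 2 the calls were Epha3, Epha4, Epha7, Unc5d and Robo1. The cause was not tested. The number of members at an unadjusted p under 0.05, 12 in the report, ran from 8 to 14 as libraries were left out. Of these, 0 to 4 were higher and 6 to 10 lower, in fits with 1698 to 2070 genes at that threshold. The number of partner genes called, 2 of 52, was 4 of 52 with DESeq2 and 5 of 53 with no filter. It was 1 of 52 with limma-voom (297 genes called), DESeq2 size factors (360), library totals alone (358) and the strand columns summed (383). As libraries were left out, 1 to 2 partner genes were called.

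Samples with the same replicate number did not deviate together (correlations of 0.0407, -0.103 and -0.211), so the numbers do not pair the embryos. With the replicate block, 2 members were called, Epha3 and Robo2, and Unc5d had an adjusted p of 0.177, and the block called 213 genes in all against 364. Between fits, the median log2 fold change of all genes moved by less than 0.1. Unc5c, at a mean of 12.5 reads with 0 to 38 reads in the controls, had the widest interval of the tested members.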
